A study of Mus musculus with 9 samples.

Results

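The open chromatin of alphaTC1 cells that carried only an empty vector is described here from ATAC-seq, the sequencing of DNA cut out by a transposase that inserts where chromatin is accessible. Of the 9 libraries of the study, the 3 labelled as empty vector were used. The other groups, also of 3 libraries each, carried an shRNA against Smndc1 or an shRNA against Atrx, and their counts enter no value below. The regions in which counts were taken are, however, 1 set for all 9 libraries, and how they were merged is not given. Which genes have a region, and how wide it is, may therefore rest on those groups too. All groups were read on day 5 after transduction. The libraries of a group are labelled as separate biological replicates of a single mouse cell line, so the spread given here is between cultures of that line and not between animals. The empty vector cells were themselves transduced, and untransduced cells were not analysed here. Because 1 group is described, no test was run: each value is a mean of 3 libraries with its SD, and the values of the libraries stand beside it.

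The alpha cell of the pancreatic islet secretes glucagon, which raises blood glucose. The line alphaTC1 comes from a pancreatic tumour of transgenic mice in which SV40 large T antigen was driven by glucagon gene sequences, so its cells divide, unlike most adult alpha cells. Alpha cell identity rests on transcription factors such as Pax6, Isl1, Irx1 and Irx2, while Pdx1, Nkx6-1 and Mafa are best known from the insulin-producing beta cell. Islet cells also use secretory granules, regulated exocytosis and ion channels that they share with neurons. Promoters of genes in use, and distal regulatory elements such as enhancers, are the places where nucleosomes are commonly displaced and the transposase can cut.

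The authors' table holds raw counts for 80827 consensus regions on mm10 (GRCm38). The level of a region is its share of the library's total count, scaled to CPM,, divided by the region's width in kb and averaged over the 3 libraries (CPM per kb). A region was taken as the promoter of a gene when it overlapped the window from 250 bases before to 50 after a start listed by RefSeq, which was available for 17274 of 21631 protein-coding genes on chromosomes 1 to 19 and X. For the other 4357 genes only the gene's ends were known, and the window reached from 500 bp within the gene to 1000 bp beyond it, at both ends, which can also catch the far end of the gene. A gene with several promoter regions was given its most open one. In these terms 11239 of 21631 coding genes, 52.0%, had a promoter region. Such a region need not be open in the empty vector cells, since the set of regions serves all groups. A gene without a promoter region is not thereby shown to be closed. Its window may miss the start in use, or its signal may lie outside the consensus regions. Nor can fewer cells with an open region be told apart from a less open region in each cell.

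The 3 libraries held 7.17, 8.15 and 5.83 M counts in the regions, which puts the level of 3 counts in the smallest regions at 0.835, 0.735 and 1.03 CPM per kb in replicates 1, 2 and 3. Replicate 3 had less contrast than the others. Its most open 10% of regions held 37.1% of its counts, against 43.6% in replicate 1 and 44.4% in replicate 2. Its median was lower at promoters and higher elsewhere, so many promoter values below are lowest in replicate 3. Rank correlations over the 80827 regions, which share libraries and depth, were 0.883 between replicates 1 and 2, 0.839 between 1 and 3 and 0.823 between 2 and 3.

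Promoter windows of 5 genes show the range of sequences behind the results. Map3k3 had the most open promoter of all, Irx2 and Gcg are markers of the alpha cell, Chgb encodes a granule protein, and Ins1, an insulin gene, had no region. The sequences are RefSeq windows of GRCm38.p6, given 5′ to 3′ on the gene's strand, with capitals marking CG dinucleotides, the sites of most DNA methylation in mammals. They lie at chr11:106084337-106084636 on the plus strand (Map3k3), chr13:72628570-72628869 plus (Irx2), chr2:62483604-62483903 minus (Gcg), chr2:132781392-132781691 plus (Chgb) and chr19:52264047-52264346 plus (Ins1).
Map3k3: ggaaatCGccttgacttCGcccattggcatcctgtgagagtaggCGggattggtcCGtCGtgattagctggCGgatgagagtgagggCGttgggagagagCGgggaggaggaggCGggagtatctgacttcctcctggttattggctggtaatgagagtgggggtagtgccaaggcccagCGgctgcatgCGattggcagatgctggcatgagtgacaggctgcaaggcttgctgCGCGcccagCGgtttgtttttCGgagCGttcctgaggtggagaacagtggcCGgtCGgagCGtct
Irx2: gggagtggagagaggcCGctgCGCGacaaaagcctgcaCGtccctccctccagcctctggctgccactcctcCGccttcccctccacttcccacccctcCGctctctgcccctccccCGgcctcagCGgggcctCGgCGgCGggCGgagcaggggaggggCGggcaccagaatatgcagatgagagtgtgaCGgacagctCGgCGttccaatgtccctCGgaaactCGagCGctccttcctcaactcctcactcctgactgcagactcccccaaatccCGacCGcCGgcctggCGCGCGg
Gcg: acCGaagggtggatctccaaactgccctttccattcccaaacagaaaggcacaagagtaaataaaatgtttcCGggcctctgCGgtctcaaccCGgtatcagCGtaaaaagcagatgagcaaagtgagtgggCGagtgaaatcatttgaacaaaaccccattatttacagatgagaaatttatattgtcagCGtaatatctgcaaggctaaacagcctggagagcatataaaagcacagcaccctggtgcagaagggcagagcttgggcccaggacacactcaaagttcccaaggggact
Chgb: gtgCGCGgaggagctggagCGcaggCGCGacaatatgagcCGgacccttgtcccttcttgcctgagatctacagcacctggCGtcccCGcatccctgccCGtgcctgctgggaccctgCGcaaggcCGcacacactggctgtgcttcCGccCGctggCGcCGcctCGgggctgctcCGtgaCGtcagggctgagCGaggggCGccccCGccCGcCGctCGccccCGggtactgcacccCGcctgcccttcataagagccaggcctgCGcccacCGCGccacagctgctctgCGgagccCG
Ins1: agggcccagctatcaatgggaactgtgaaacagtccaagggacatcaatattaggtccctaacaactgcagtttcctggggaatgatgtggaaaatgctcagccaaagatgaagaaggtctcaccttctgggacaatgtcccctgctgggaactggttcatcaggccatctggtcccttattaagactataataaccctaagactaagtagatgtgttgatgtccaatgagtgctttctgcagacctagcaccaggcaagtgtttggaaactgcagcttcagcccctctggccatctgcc
Counts of CG dinucleotides were 19 for Map3k3, 25 for Irx2, 7 for Gcg, 31 for Chgb and 0 for Ins1. The Map3k3 window holds 4 CCAAT boxes and the Gcg window 2 matches to TATAAA. The Chgb window holds the palindrome TGACGTCA, known as the cyclic AMP response element, once. These are matches of letters on either strand and not measured sites of binding.

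Promoters were the most open places of these cells. The 11164 regions at coding promoters, 13.8% of all, had a median level of 39 CPM per kb, against 17.9 for 946 regions at promoters of non-coding genes, 8.67 for 33832 regions in gene bodies and 7.38 for 34885 regions between genes. Medians at coding promoters were 40.6, 41.1 and 35.0 CPM per kb in replicates 1, 2 and 3, and at all other regions 7.23, 7.35 and 10.3. In every library the coding promoters lay well above the rest. Of all regions, 6772 or 8.38% were in the most open 10% of each of the 3 libraries. That held for 4363 coding promoter regions, 39.1% of them, and for 2409 other regions, 3.46% of them. Coding promoters took 41.4% of all counts and made up 64.4% of the regions that were in the most open 10% throughout.

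**Figure D1:**
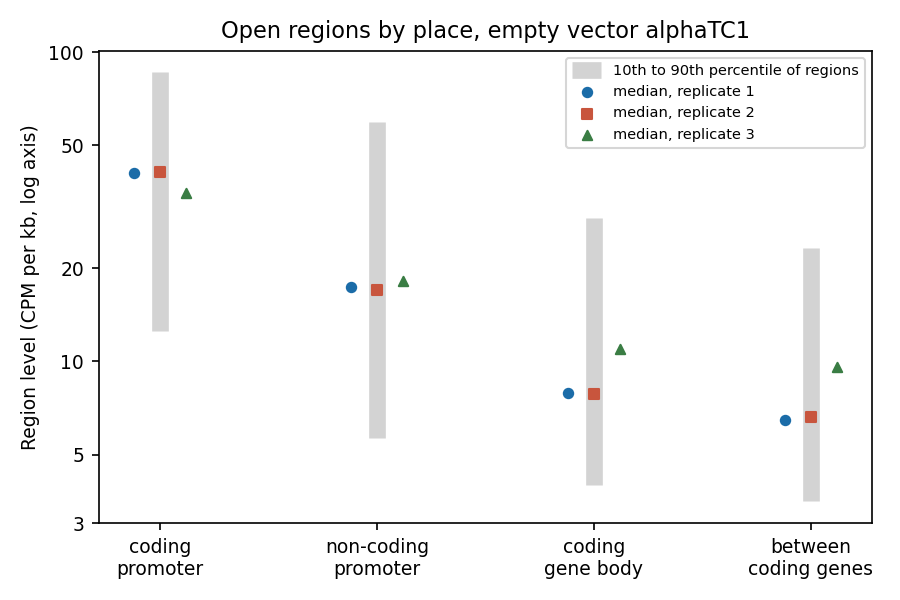
Level of consensus regions (CPM per kb, log axis) by place in the genome. Symbols are the median of each empty vector library and grey bars run from the 10th to the 90th percentile of the mean level over regions; coding promoters had medians of 35.0 to 41.1 and regions between genes 6.48 to 9.59.

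Width is part of how the regions were made: 53.4% of them have the smallest width found, but 8.01% of coding promoters do, and the median width at coding promoters was 747 bp. Regions of the smallest width had a median level of 5.93 CPM per kb, and the 823 widest had 24.8. Where leaving out the division by width moves a chosen gene to the other side of the median, this is said beside its value.

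Among 11239 genes with a promoter region the median level was 41.8 CPM per kb, the 10th percentile 14.6 and the 90th 89.4. The median coefficient of variation over the libraries was 13.4%. The most open promoter belonged to Map3k3, a kinase of the MAP kinase cascades, at chr11:106084008-106084578, with 349.6, 389.4 and 310.8 CPM per kb in replicates 1, 2 and 3 (349.9 ± 39.3, SD, n = 3). Mtmr4, a phosphoinositide phosphatase gene placed by its ends, had 361.9, 361.5 and 323.7 CPM per kb (349.0 ± 22). At Mxd4, which encodes a MAX-binding repressor of the Myc network, the values were 377.7, 330.3 and 308.7 CPM per kb (338.9 ± 35.3). These 3 overlapped one another, and their lowest value exceeded every value of the 9 promoters that follow.

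The next promoters lay between 219 and 258 CPM per kb. They belonged to Sertad2, a transcriptional coregulator (258 ± 39), Kpnb1, the importin beta of nuclear import (251 ± 37.8), and Qdpr, which regenerates tetrahydrobiopterin (248 ± 33.3). A region shared by the divergent pair Grk4 and Nop14 had 233 ± 14.4 CPM per kb, and Osbpl2, an oxysterol-binding protein gene, had 233 ± 31.6. Mdh1, cytosolic malate dehydrogenase, shares its region with Wdpcp at 227 ± 30.5. Eml6 (222 ± 30.6), Narf (221 ± 36.8) and Slc1a4, a neutral amino acid transporter gene (219 ± 18.1), complete the 12. Of the 12 regions 8 are on chromosome 11 and 3 on chromosome 5, which hold 8.21% and 6.53% of coding promoter regions.

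At the other end, 6 promoter regions had 1.09 to 2.33 CPM per kb, near the level of 3 counts. Cntfr, the receptor gene of ciliary neurotrophic factor, had 7, 4 and 1 counts in replicates 1, 2 and 3. Trhr, the receptor gene of thyrotropin-releasing hormone, had 3, 0 and 9 counts. Taar7a, a trace amine receptor gene of the olfactory system, had 11, 8 and 4 counts. Ces2c, a carboxylesterase gene, had 4, 4 and 13, and Lyzl1, a lysozyme-like gene, 10, 6 and 8. Trhr and Lyzl1 were placed by gene ends, so their region may not be at the start. Counts this low do not order these genes.

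The alpha cell label was checked at Gcg, Irx1, Irx2 and Pax6, and all 4 genes had a promoter region. Gcg, the proglucagon gene, had 63.8, 63.1 and 41.4 CPM per kb in replicates 1, 2 and 3 (56.1 ± 12.7) at chr2:62483347-62483947, from 275, 309 and 145 counts. Each value was above the median promoter of its own library, which was 43.5, 44.1 and 37.1 CPM per kb. Irx2, an Iroquois homeobox gene, had 85.8, 82.6 and 61.6 CPM per kb (76.6 ± 13.2) at chr13:72628290-72629025, above the median in every library. Irx1, its neighbour of the same family, had 21.9, 26 and 19 CPM per kb (22.3 ± 3.51) in the most open of 3 regions found by gene ends, below the median in every library. Pax6, a paired-box factor of all islet endocrine cells, had 29, 33.0 and 16.6 CPM per kb (26.2 ± 8.56) at its more open promoter region, below the median in every library.

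Relative to the promoter median the levels of these markers were 1.34 times for Gcg, 1.84 for Irx2, 0.534 for Irx1 and 0.627 for Pax6. Without division by width Gcg stood at 0.948 of the median and Pax6 at 1.36, since the Gcg region is narrow and those of Pax6 are wide. Summed over their promoter regions Irx1 reached 1.28 times and Pax6 1.12 times the median. Set against promoters within 5 Mb, Irx2 had 3.25 times, Gcg 1.64 times, Irx1 1.09 times and Pax6 0.767 times the local median.

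Distal regions added to these genes. Pax6 had its most open region inside the gene, at chr2:105675108-105675840, with 97.0, 90.3 and 66.3 CPM per kb (84.5 ± 16.2), above its own promoter in every library. With 50 kb on both sides Pax6 had 12 regions that are no coding promoter, Gcg 9, and Irx1 and Irx2 4 each. Beside Gcg the most open of them was at chr2:62473246-62474358, 9.85 kb downstream of the start and past the end of the gene, with 39.2, 30.0 and 23.6 CPM per kb (30.9 ± 7.85). A region 1.42 kb upstream had 28.8, 30.9 and 18.4 CPM per kb (26 ± 6.72). Both were below the Gcg promoter in each library. The most open of the 4 at Irx2 lay 10.6 kb downstream at 24.4 ± 3.55 CPM per kb.

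Of 15 genes listed for alpha cell identity, not all of them transcription factors, 11 had a promoter region, or 73.3% against 52.0% of all coding genes. In the most open 10% in each library were 4, or 26.7% against 22.1%. Foxa2, a forkhead factor of endoderm, had 80.8, 85.8 and 53.5 CPM per kb (73.4 ± 17.4). Tshz1, a zinc finger factor, had 61.5 CPM per kb, but the same region is the promoter of its neighbour Zadh2. Slc7a2, an arginine transporter gene, had 38.2 CPM per kb, Pou3f4, a POU factor active in alpha cells, 37.9 ± 3.63, and Isl1, a LIM homeobox factor, 36.9 ± 8.01. Isl1 lay below the median of all coding promoters, but at 1.06 times the median without division by width. Lowest were Irx1 and Ttr, the transthyretin gene, at 2.45 ± 1.69 CPM per kb. Gc, Fev and Tshz2 were among the 4 with no promoter region. The median of the 11 was 37.9 CPM per kb, against 41.8 for all coding genes. It was 1.06 times the median of all without division by width, 1.12 times with promoter regions summed and 1.10 times against promoters within 5 Mb.

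**Figure D2:**
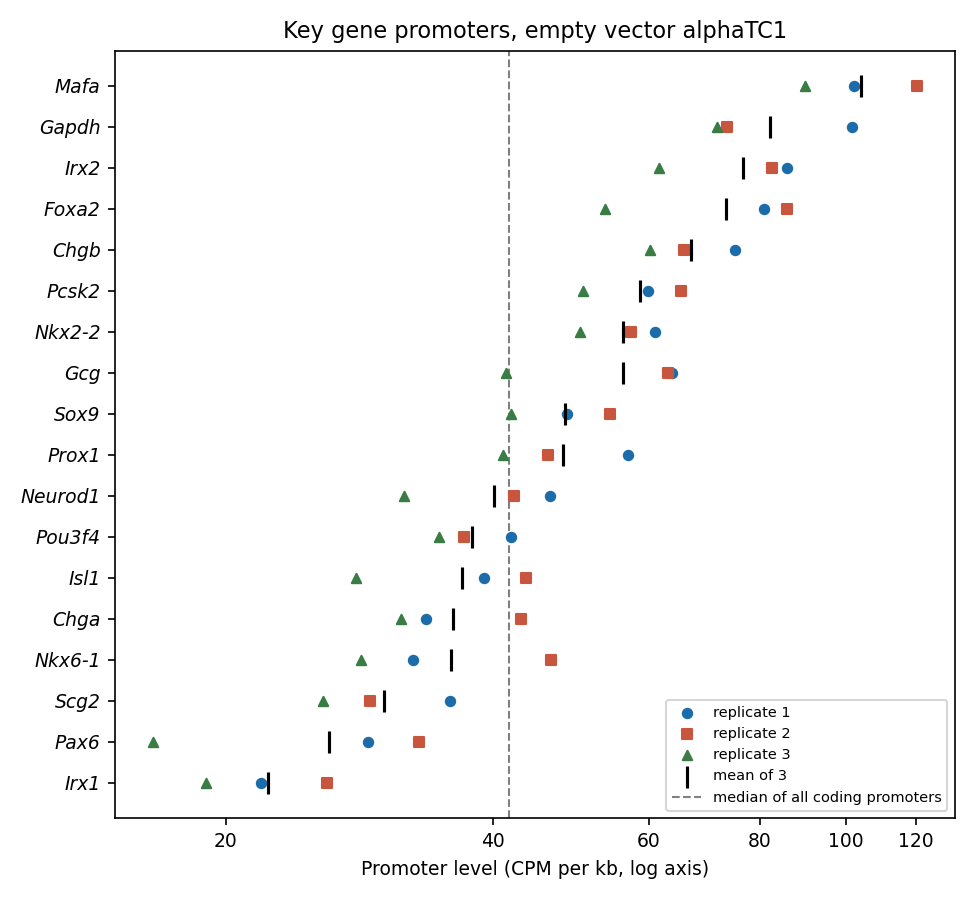
Promoter level (CPM per kb, log axis) of 18 chosen islet and reference genes that had a promoter region, ordered by mean. Symbols are the 3 empty vector libraries, black ticks their mean and the dashed line the median of all coding promoters; Mafa is highest, Irx1 and Pax6 are lowest, and each gene overlaps the next in the order.

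Of the 32 chosen genes 19 had a promoter region. In their order by mean level every gene overlapped its neighbour, in 18 of 18 pairs. Mafa led with 102, 120 and 90.04 CPM per kb (104 ± 15.2). Gapdh, a glycolytic enzyme often used as a reference, had 102, 73.5 and 71.6 CPM per kb (82.2 ± 16.8). Irx2 and Foxa2 came next, then Chgb with 75.1, 65.7 and 60.2 CPM per kb (67.0 ± 7.51) and Pcsk2, the convertase that cuts proglucagon to glucagon, with 59.9, 65.2 and 50.6 CPM per kb (58.6 ± 7.42). Nkx2-2 (56.1 ± 5.49) stood level with Gcg, and like Gcg it was below the median without division by width, at 0.836 times. Sox9 (48.2 ± 6.14) stood level with Prox1 (48.0 ± 8.0). Neurod1, Pou3f4, Isl1, Chga and Nkx6-1 lay between 35.8 and 40.1 CPM per kb, and Scg2 had 30.2 ± 5.11. Of these Neurod1 and Isl1 were above the median without division by width, Neurod1 at 1.25 times. The plot of chosen genes by library shows that replicate 3 was lowest in most of them.

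Of 28 transcription factors shared by islet endocrine cells, 14 or 50% had a promoter region and 8 were in the most open 10%, or 28.6% against 22.1% of coding genes. The median of the 14 was 49.2 CPM per kb, against 41.8 for all coding genes, but 0.912 times when each was set against promoters within 5 Mb. Meis1, a TALE homeobox gene, was highest at 84.3 ± 14.9 CPM per kb. Rfx3, a factor of ciliogenesis and islet maturation, had 74.4 ± 6.28 and Myt1, a zinc finger factor of endocrine progenitors, 57.3 ± 8.60. Onecut1, a cut homeobox gene of the early pancreas, was lowest at 8.66 CPM per kb. Insm1, Rfx6, Pax4, Neurog3, Mnx1, St18, Foxa1, Gata4 and Hnf4a were among the 14 with no promoter region. Pax4 and Neurog3 are known from endocrine progenitors, while Insm1 and Rfx6 stay active in mature islet cells. At Insm1 the gene's own body held a region of 31.1, 38.3 and 36.7 CPM per kb (35.4 ± 3.75) at chr2:146222818-146223641, which the window at the gene's ends missed.

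Nkx2-2, a homeobox factor needed for alpha and beta cells, had the richest surroundings of the chosen genes. Its gene and 50 kb on both sides held 21 regions that are no coding promoter, with 374 CPM per 100 kb, rank 36 of 21631 loci. The most open lay inside the annotated gene and 8.83 kb upstream of the nearest start, at chr2:147194761-147195710, with 140, 139 and 112 CPM per kb (130.4 ± 15.6). All 3 values exceed every value of the promoter region at the listed Nkx2-2 start, which had 61.0, 57.2 and 50.2 CPM per kb. The annotated gene reaches beyond that start, and whether the upstream region lies at another start of Nkx2-2 was not tested. Insm1 came next with 212 CPM per 100 kb over 11 regions, then Ppy with 193, Pax6 with 179 and Actb with 164, against a median of 23.0 over all coding loci. Most of the Insm1 regions lie inside the neighbouring genes Ralgapa2 and Cfap61, among them the most open, at 42.8 ± 4.20 CPM per kb in Ralgapa2. Isl1 had a region of 59.1 ± 6.36 CPM per kb 12.2 kb from its start, and Neurod1, a bHLH factor of endocrine and neuronal cells, had 11 regions and 120 CPM per 100 kb. Around Chgb no region other than coding promoters was found.

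Of the hormone genes, Gcg was the only gene of the islet with a promoter region. Of 17 hormone genes of islet and gut endocrine cells 2 had a region, or 11.8% against 52.0% of coding genes, and the other was Sct, the secretin gene, at 14.5 CPM per kb. Ins1, Ins2, Sst, Ppy, Pyy, Iapp, Ghrl, Npy, Gip, Cck, Gast, Nts, Tac1, Vip and Ucn3 had none. The Ins1 locus with 50 kb on both sides held 0 regions, and the Ins2 locus 1, with 8.07, 10.3 and 8.56 CPM per kb (8.97 ± 1.17). At Sst 5 regions reached at most 16.7 ± 1.41 CPM per kb. The most open region near Ppy, at 93.1 ± 3.62 CPM per kb, lies inside the neighbouring gene Mpp2.

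Genes of the beta cell were mixed. Of 18 listed, 8 or 44.4% had a promoter region, near the 52.0% of all coding genes, with a median of 28.2 CPM per kb. Mafa, an activator of the insulin gene, was placed by its ends here and had the level given above. Ero1b, an oxidase of protein folding in the endoplasmic reticulum, had 52.7 CPM per kb. Nkx6-1 had 32.6, 46.6 and 28.4 CPM per kb (35.8 ± 9.5), and a second region 0.672 kb upstream of its start had 84.1, 88.9 and 76.9 (83.3 ± 6.02), above the first in every library. With a promoter window of 1000 bases before to 500 after the start that region counts as its promoter, at 2.00 times the median. Kcnj11 (30.05 CPM per kb) and Abcc8 (17.7), the subunits of the ATP-sensitive potassium channel, differed in level. Pdx1, Slc2a2, Glp1r, Ucn3, Iapp, Ins1, Ins2, Trpm5, Sytl4 and Npas4 had no promoter region, and the regions near Pdx1 reached at most 22.4 ± 4.15 CPM per kb. Of 10 genes of delta and PP cells 3 had a region, against 52.0% of all coding genes. These were Etv1 (29.6), Rbp4 (23.7) and Sema3e (13.2 CPM per kb), while Sst and Hhex had none.

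Most genes of the secretory machinery had a promoter region, at levels in the middle of the range. Of 19 genes of prohormone processing and granules 16 or 84.2% had a promoter region, against 52.0% of coding genes, and 7 or 36.8% were in the most open 10%, against 22.1%. Their median was 39.4 CPM per kb, or 0.943 times that of all promoters, and 1.13 times without division by width. Ptprn, a receptor-like phosphatase of granules, led with 75.5 ± 5.63, followed by Dner (67.6), Chgb and Pam, which amidates peptides (62.5). Cadps, which primes granules for release, had 22.2 and Resp18 25.4. Pcsk1, the convertase of the beta cell and gut, had no promoter region, nor did Slc18a2 and Sytl4. Of 18 exocytosis genes 17 or 94.4% had a region, with a median of 39.8 CPM per kb. Rab3a, a GTPase of secretory vesicles, led with 84.8 ± 5.20, ahead of Syt7 (59.9), a calcium sensor.

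Ion channel genes were often open but less so. Of 27 listed, 21 or 77.8% had a region, against 52.0% of coding genes, with a median of 29 CPM per kb. In the most open 10% were 4, or 14.8% against 22.1% of coding genes. Cacna2d1, an auxiliary calcium channel subunit, had 102 ± 23.1 CPM per kb, Cacna1a, the pore of P/Q-type channels, 63.6, and Kcnk3, a background potassium channel gene, 59.3. Gria3 (8.38) and Kcnd3 (8.84) were lowest. Of 23 receptors of endocrine cells 9 or 39.1% had a region, none in the most open 10%, with a median of 17.0 CPM per kb. Insr, the insulin receptor gene, was highest at 46.0 ± 8.16, ahead of Chrm4 (44.9) and Gabbr1 (41.9). The receptor genes of the incretin and glucagon hormones, Glp1r, Gipr and Gcgr, had no promoter region. Among 15 alpha cell surface and secretory genes 9 had a region, not far from the 52.0% of all coding genes. Dpp10 (61.9), Cpe (59.6), Kcnk3 and Pcsk2 led, and Gpr119 was lowest at 7.20 CPM per kb.

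Neuronal genes that endocrine cells share and those they are not known for were listed apart. Of 31 neuronal genes known also from endocrine cells 24 or 77.4% had a promoter region, against 52.0% of coding genes. Their median was 33.4 CPM per kb. Kif1a, a vesicle motor, led with 95.6, 88.0 and 78.8 CPM per kb (87.5 ± 8.40), above the promoter median in each library. Scrt1, a zinc finger repressor of neuroendocrine cells, had 65.4, Tubb3, a neuronal tubulin gene, 62.9, and Kif5c 61.6, while Stmn2 had 5.66 and Nlgn1 8.01. The list also counts Rest, the repressor of neuronal genes rather than a neuronal gene, which had no promoter region. Srrm4, Dcx, Mapt and Gad2 had none either. Of 30 transcription factors of neurons that islets are not known for, 7 or 23.3% had a region, with a median of 18.6 CPM per kb. Exceptions were Lhx2, a LIM homeobox gene of the forebrain, with 60.5, 83.2 and 53.5 CPM per kb (65.7 ± 15.5), and Neurod6, a bHLH factor of cortical neurons, with 56.3, 50.5 and 48.8 (51.9 ± 3.93). Both exceeded the promoter median in every library. Of 25 synaptic receptor and transporter genes 9 or 36.0% had a region, with a median of 16.9 CPM per kb, and Camk2a, a calcium-dependent kinase gene, had 50.4. Genes that define classes of neurons, among them Slc17a7, Slc17a6, Slc32a1, Th, Chat, Neurod2 and Rbfox3, had none. Of 17 glial genes 7 had a region, beside 52.0% of all coding genes, at 6.84 to 34.0 CPM per kb.

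Genes of other lineages mostly had no promoter region. None of 17 fibroblast and stromal genes, 20 muscle genes and 14 skin epithelium genes had a region, against 52.0% of coding genes. A region was found for 2 of 19 liver genes, 2 of 14 intestinal genes, 2 of 20 lymphoid, 3 of 16 myeloid, 3 of 15 erythroid and platelet and 3 of 16 endothelial genes. Pecam1, Cdh5, Kdr, Ptprc, Col1a1 and Pdgfra, markers of endothelium, blood and stroma, were without one. Spi1, also chosen as a blood marker, had a region at 28.8, 25.6 and 24.0 CPM per kb (26.1 ± 2.45). The 3 endothelial genes with a region had 4.0 to 11.3 CPM per kb. In the pancreas itself, 5 of 20 acinar genes had one, at 5.90 to 21.8 CPM per kb. The acinar marker Rbpjl was among them, at 21.2 ± 7.63, while the markers Ptf1a, Cpa1 and Cela1 had none. Of 15 ductal genes 6 had a region, and Sox9 (48.2 ± 6.14) and Car2 (40.9) exceeded the rest, which lay at 5.31 to 13.4 CPM per kb, while Krt19 and Cftr had none. Alb, the albumin gene, had 0 regions in the gene or within 50 kb.

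A few members of these lists stood out. Lgr5, a receptor of Wnt-responsive stem cells, had 89.3, 75.5 and 51.8 CPM per kb (72.2 ± 19), above the promoter median in every library. Klf4, a zinc finger factor, had 54.1, 63.3 and 43.7 CPM per kb (53.7 ± 9.81). It was the only 1 of 14 pluripotency genes with a region, against 52.0% of all coding genes. Gdf9, an oocyte growth factor, was the only 1 of 18 germ cell genes, at 85.3 ± 9.85 CPM per kb, but the same region is the promoter of its neighbour Uqcrq, a subunit of the respiratory chain. C1qa, a complement gene of macrophages, had 45.2 ± 5.30 by gene ends, and the region counted for Cd4 (33.9) also lies at Gpr162.

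**Figure D3:**
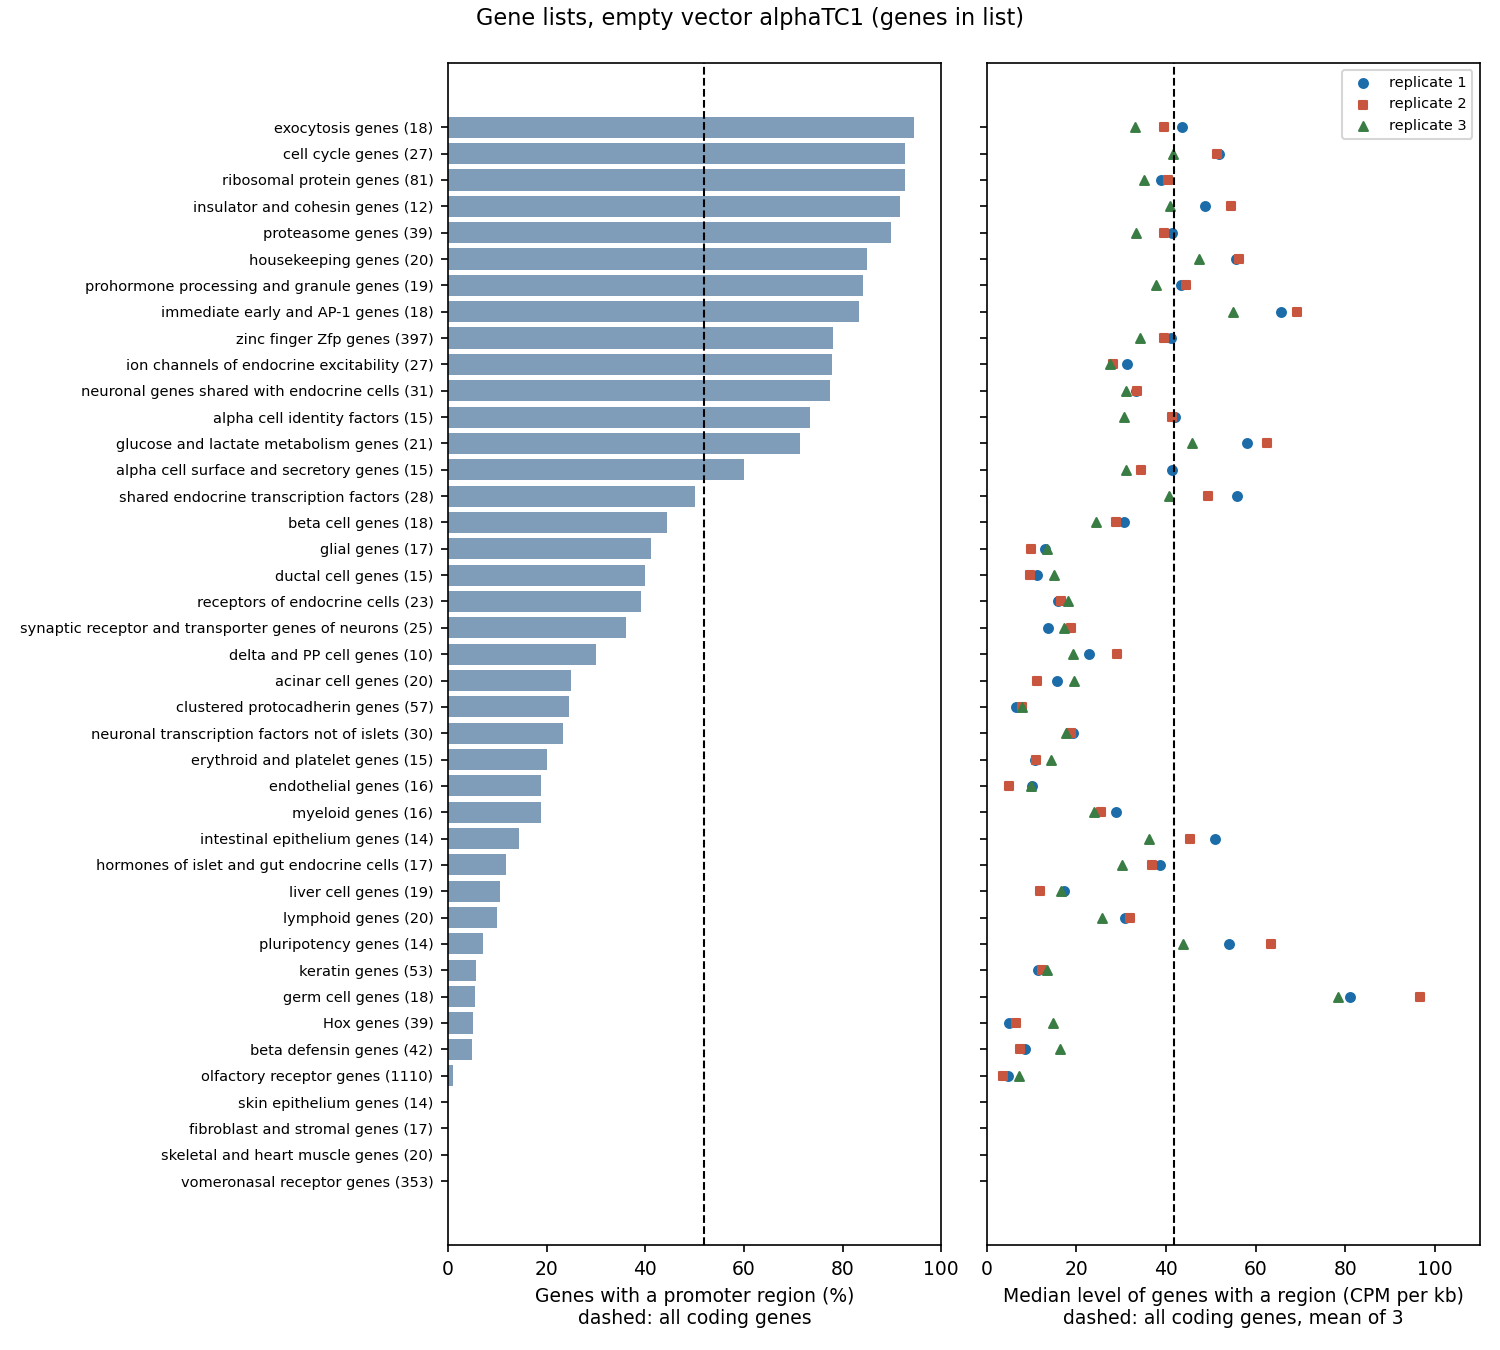
Left, percent of the genes of each list with a promoter region, list sizes in brackets; right, median level (CPM per kb) over the genes that have one, in each empty vector library. Dashed lines mark all coding genes, 52.0% and 41.8 CPM per kb; housekeeping, cell cycle and secretory lists lie to the right of the first line and lists of other lineages and receptor families to the left.

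Housekeeping and cell cycle genes were among the more open lists. Ribosomal protein and proteasome genes, given below, were not, with medians below that of all coding genes. Of 20 housekeeping genes 17 or 85.0% had a region, against 52.0% of coding genes. Their median was 55.2 CPM per kb, and Ppia (111 ± 13.3) and Pgk1 (89.4) led. Actb, the cytoplasmic actin gene, was without a promoter region, yet had regions of 82.5 ± 10.6 and 53.9 ± 3.35 CPM per kb inside the gene, which its window by gene ends missed. Of 27 cell cycle genes 25 or 92.6% had a region, with a median of 51.7, among them Cdkn1b, an inhibitor of cyclin-dependent kinases (100.1 ± 26.7), E2f1 (92.4 ± 2.02) and Pcna (77.5). Of 21 genes of glucose and lactate metabolism 15 or 71.4% had a region and 11 were in the most open 10%, or 52.4% against 22.1% of coding genes. Pcx, pyruvate carboxylase, had 104 ± 3.22, Pgk1 89.4 and Hk1, the hexokinase of most tissues, 87.6 ± 4.70 CPM per kb. Hk2, Hk3, Slc2a2 and Ldha had no promoter region.

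Immediate early genes, which respond within minutes to stimuli, were the most open of the lists with more than 2 members measured. Of 18, 15 had a region, against 52.0% of coding genes, with a median of 63.4 CPM per kb. In the most open 10% were 12 or 66.7%, against 22.1% of coding genes. Fosl2, a partner of Jun in AP-1, had 204, 223 and 169 CPM per kb (199 ± 27.1), and Dusp1, a MAP kinase phosphatase, 129, 152 and 125 (135 ± 14.5). Nr4a1, an orphan nuclear receptor, had 92.8, Fos 57.4 ± 10.6 and Nr4a2 the lowest level, 23.7. Regions that are no coding promoter were dense there too, with a median of 129 CPM per 100 kb of locus, against 23.0 for all coding genes.

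Large families showed both ends, beside the 52.0% of all coding genes that had a promoter region. Ribosomal protein genes had a region in 75 of 81 cases, with a median of 37.9 CPM per kb, and proteasome genes in 35 of 39, with 38.1, against 41.8 for all coding genes. Of the 75 ribosomal protein genes with a region 33 were above that value. Within them Rps21 had 168 ± 15 and Psmb3 126 ± 9.44 CPM per kb. Cohesin and insulator genes had a region in 11 of 12 cases, with 45.9, and Stag1, a cohesin subunit, had 68.8 ± 8.12. Zinc finger genes named Zfp had a region in 310 of 397 cases, or 78.1%, with a median of 37.7, led by Zfp513 at 157 ± 6.92 CPM per kb. In contrast 2 of 39 Hox genes had one (Hoxb9 9.19 and Hoxc5 8.30 CPM per kb), as did 3 of 53 keratin, 2 of 42 beta defensin and 14 of 57 clustered protocadherin genes. Of 1110 olfactory receptor genes 11 had a region, at 3.41 to 15.6 CPM per kb, and of 353 vomeronasal receptor genes 0. Loci of these receptors held no other region in 66.5% of olfactory and 71.4% of vomeronasal genes, against 15.2% of all coding genes. Keratin loci held 68.3 CPM per 100 kb in the median, Hox loci 24.98 and protocadherin loci 21.3, against 23.0 for all coding genes.

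Distal regions, those at no coding promoter, include promoters of non-coding genes and regions near a coding start. By mean level the highest of them lay below Map3k3, Mtmr4 and Mxd4 and above all other promoters. The most open, at chr16:42875275-42875781, lies inside Zbtb20, a zinc finger repressor gene, at the start of the non-coding gene 4932412D23Rik, with 324, 271 and 247 CPM per kb (280.6 ± 39.3). A region between genes at chr5:44151307-44151959 had 275, 227 and 206 CPM per kb (236 ± 35.2). Inside Arhgap23, a GTPase-activating protein gene, a region 30.8 kb from the nearest start had 228, 230 and 193 CPM per kb (217 ± 21.2). Inside Nos3, endothelial nitric oxide synthase, a region 0.958 kb from the start had 233, 205 and 207 (215 ± 15.9). All of these were in the most open 10% in each library.

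Further from known starts, chr11:8424851-8425421 lies 239 kb from the start of Tns3, an adhesion protein gene, and 6.23 kb beyond its far end, at 210 ± 26.9 CPM per kb. The region chr5:4486019-4486629 lies 267 kb from Fzd1, a Wnt receptor gene, at 200.2 ± 37.5. Regions inside Pik3ip1 (201 ± 22.4), Rdm1 (185 ± 15.2) and Dpp6 (174 ± 27.7), near Vapb (182 ± 4.53) and at the non-coding genes 1700096K18Rik (198 ± 25.3) and Gm15743 inside Bdh1 (176 ± 11.8) complete the 12. Of these 12, 5 are on chromosome 5 and 4 on chromosome 11. The least open were a region 224 kb from Klf12, with 2, 0 and 0 counts, and a region inside Snrpn, an imprinted gene, with 0, 1 and 1. Regions inside Mdga2 and Dlg2, neuronal adhesion and scaffold genes, and regions over 1000 kb from Rapgef2 and Nudt12 also had at most 3 counts in any library.

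Level was lower at greater distance from the nearest coding gene start. For genes without a listed start either gene end stood in for it, so some distances run to the far end. Regions at no coding promoter had a median of 19 CPM per kb within 1 kb, 10.3 at 1 to 10 kb, 8.32 at 10 to 50 kb, 7.65 at 50 to 100 kb, 6.62 at 100 to 500 kb and 5.14 beyond 500 kb. The same order held in each of the 3 libraries. In the most open 10% were 11.4% of those within 1 kb and 0.50% of the 2401 beyond 500 kb. Ranked by such regions per 100 kb, the first loci were Arl4d on chromosome 11 (705 CPM per 100 kb), the neighbours Atg9b, Nos3, Abcb8 and Kcnh2 on chromosome 5 (546 to 628), and Rdm1 and Copz2 on chromosome 11 (524 and 519).

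Openness followed the CG content of the promoter window. Over the 17274 genes with a listed start, 5.96% of 4818 windows with 0 to 4 CG dinucleotides had a region, 28.2% of those with 5 to 9, 62.0% with 10 to 14, 76.9% with 15 to 19, and 82.8% to 86.9% of the bins above. Where a region was present, its median level was 12.7 CPM per kb in the first bin, 25 in the second and 50.1 at 30 to 39, and 42.7 at 40 or more. Windows in the most open 10% had a median of 24 CG dinucleotides, other windows with a region 20 and windows without 4. GC content was higher along the same bins, with medians of 44% to 77.3%, and its own part in the counts was not tested. Gcg, with 7, lies in the second bin at more than the bin's median level in each library, and Pcsk2 with 36 and Chgb with 31 lay above the median of theirs in each library as well. Of the 15 chosen genes with a listed start and a region, 7 had a mean level above the median of their bin and 8 below it. Below it were Isl1 with 37 CG dinucleotides, Nkx6-1 with 40, Neurod1 with 26, Prox1 with 25, Chga with 21, Pax6 with 18, Scg2 with 16 and Pou3f4 with 15.

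**Figure D4:**
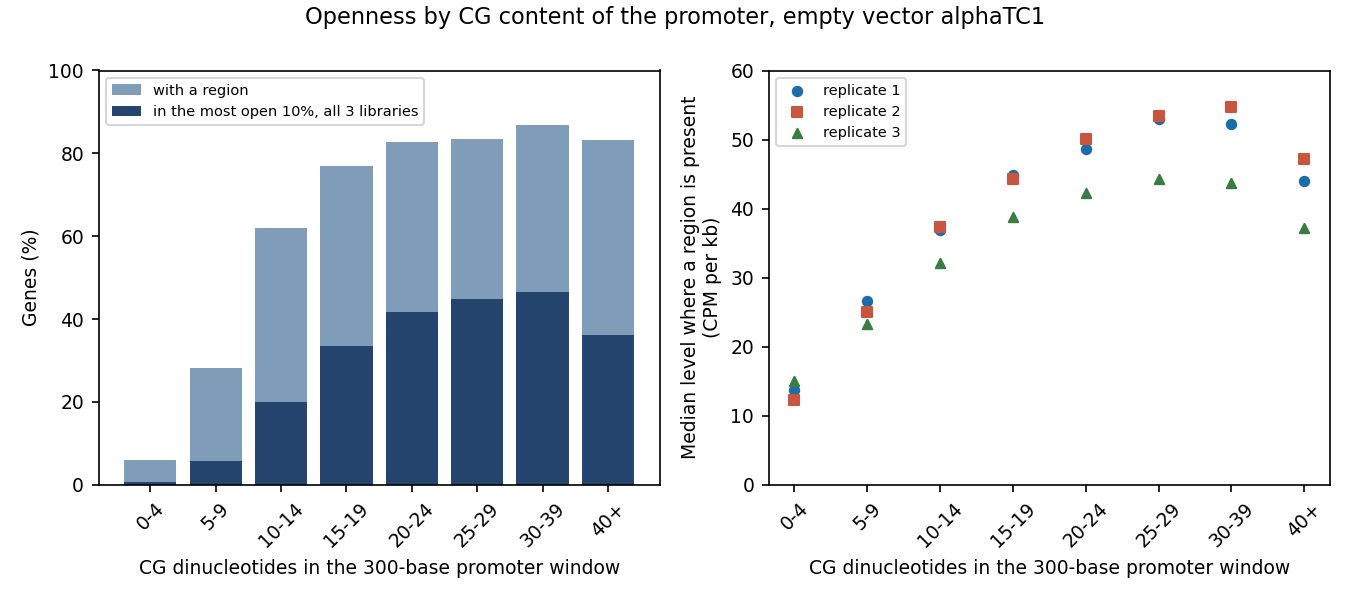
Left, percent of genes with a promoter region (light) and in the most open 10% of regions in all 3 libraries (dark) by number of CG dinucleotides in the 300-base window; right, median promoter level (CPM per kb) in each empty vector library. The share with a region goes from 5.96% to 86.9% and the levels are highest at 25 to 39.

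Short motifs were counted on either strand of the same windows. The GC box GGGCGG was in 76.6% of the most open windows, 63.1% of other windows with a region and 24.8% of windows without (47.8% of all). For CCAAT the shares were 49.3%, 32.4% and 39% (39.4% of all), and for the ETS motif CCGGAAG 21.3%, 19.1% and 3.85% (12.3%). TGACGTCA was in 3.86%, 3.40% and 0.974% (2.34%) and its part TGACGT, which overlaps it, in 15.1%, 10.8% and 4.57% (8.81%). The core of the NRF1 site, GCGCATG, was in 8.68%, 7.40% and 1.70% (4.95%), and AAGATGG, a YY1 motif, in 7.52%, 7.54% and 5.28% (6.45%).

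Other motifs were more frequent in windows without a region. TATAAA was in 4.14% of the most open windows, 7.24% of other windows with a region and 21.1% of those without (13.2% of all). The AP-1 motif TGANTCA was in 3.40%, 4.82% and 10.1% (7.02%), the forkhead motif TGTTTAC in 2.09%, 2.58% and 3.67% (2.99%), the E-box CAGATGG in 2.82%, 3.6% and 5.64% (4.41%) and the homeobox core TAATTA in 1.36%, 2.58% and 7.19% (4.52%). The windows also differ in CG content, as given above, and its part in these shares was not tested. Both matches to TATAAA in the Gcg sequence printed above are of the kind found mostly in windows without a region.

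Chromosomes differed in the level of their promoters. Median promoter levels were highest on chromosome 11 (59.7, 62.5 and 52.5 CPM per kb in replicates 1, 2 and 3), followed by chromosomes 16 (55.2 on average), 1 (54.0) and 17 (53.7). They were lowest on chromosome 14 (27.6, 28.3 and 23.9), then 9 (28.2), 13 (29.7) and X (31.1). The highest was 2.21 times the lowest, and in each library the first 4 lay above and the last 4 below the median of all. The number of regions followed: chromosome 11 had 7691 regions for 1609 coding genes and chromosome 14 had 1484 for 851. The median of regions other than coding promoters did not, at 8.81 CPM per kb on chromosome 11 and 9.59 on chromosome 14. The 90th percentile of these regions was 35.5 on chromosome 11 and 23.4 on chromosome 14. It was lower than either on chromosomes 1 (21.6) and 16 (21.9). Copies of each chromosome in this line were not measured here, and their part in these levels was not tested.

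**Figure D5:**
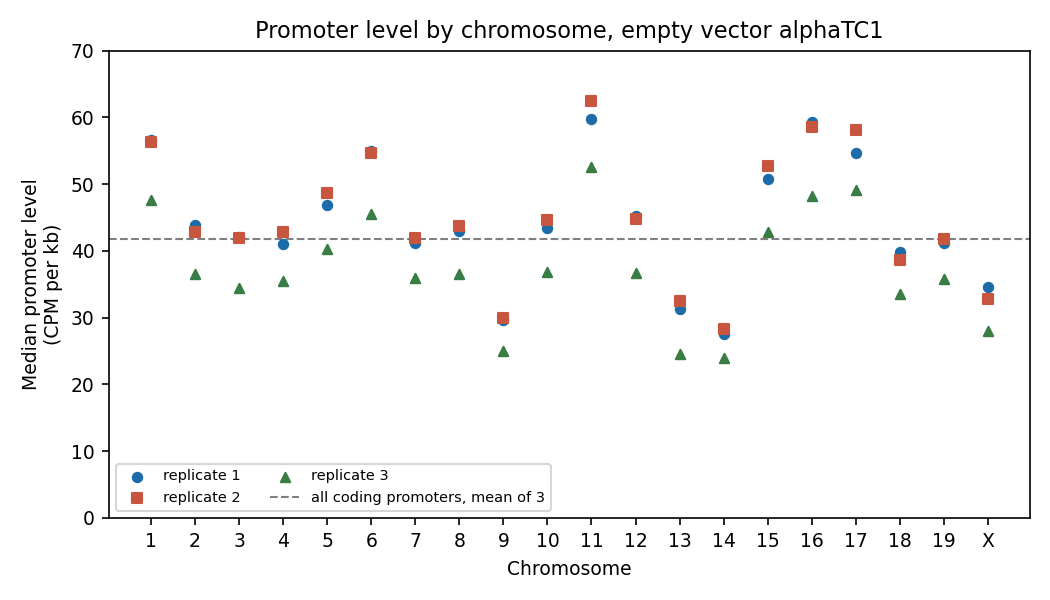
Median promoter level (CPM per kb) of coding genes with a promoter region on each chromosome, in each empty vector library; the dashed line is the median over all coding genes, 41.8. Chromosome 11 is highest and chromosome 14 lowest in every library.

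Within chromosomes, 206 stretches of 10 Mb with at least 20 such genes ran from 18.7 CPM per kb on chromosome 13 (60 to 70 Mb) to 107 on chromosome 11 (20 to 30 Mb), a ratio of 5.75. Chromosome 5 from 20 to 30 Mb had 101 and from 30 to 40 Mb 92.0, and chromosome 11 beyond 120 Mb 81.7. These stretches hold several of the most open promoters named above, among them Sertad2, Mdh1, Eml6 and Slc1a4 on chromosome 11 and Mxd4 and Nop14 on chromosome 5. Set against the promoters within 5 Mb, Mtmr4 (6.93 times) and Map3k3 (5.30) still came first, followed by Map9, a microtubule-associated protein gene (5.29), and Eny2 with Nudcd1, which share a region (5.21). Cdk20, a cyclin-dependent kinase gene (4.85), Etfdh, an electron transfer flavoprotein dehydrogenase (4.52), and Morf4l2, a subunit of histone acetyltransferase complexes (4.45), came next. Mafa stood at 2.13, Gapdh at 1.86, Chgb at 1.62, Nkx2-2 at 0.807, Pcsk2 at 0.798 and Sox9 at 0.582 times their local median, so the last 3 change sides of 1 with this reference.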

How the data were processed

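Per the labels, ATAC-seq libraries of alphaTC1 cells were sequenced as 75 bp paired-end reads. The authors deposited a table of raw counts per consensus region and a file of region bounds on mm10. The submitters' processing notes name MACS2 2.2.7.1, bedtools 2.27.1, Bowtie2 2.4.4, deepTools 3.5.1 and SAMtools 2.8.0. What each did, how regions were merged over libraries and what was counted (reads, fragments or insertions) is not given in the sources used here. Every column was matched to a label, and the 3 empty vector columns were used. Counts were divided by the column total and region width. Promoters, CG content and motifs come from RefSeq tables of GRCm38.p6; no genome was used. A locus is the gene with 50 kb on both sides. The members, gene lists and rules were chosen with earlier results of these data known. Named are 32 chosen genes, the 12 most and 6 least open promoter and distal regions, and the highest, lowest and missing members of each list; other genes, among them the loci with most regions and those highest over their neighbours, were named after their values were seen. A few of these genes are not reported here. The overlap and ranking steps were tested on simulated data. Alternatives were edgeR 4.0.16 TMM factors in R 4.3.3, quantile normalisation, CPM per region, the median, a mean count of at least 10, other windows, summed regions and each library left out; a reference within 5 Mb and listed starts alone were chosen after seeing the data. Python 3.11.15, pandas 2.3.3, numpy 2.4.6 and matplotlib 3.10.9 were used. Floors of 3 counts cover counting error only.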

Additional observations from a re-analysis of the deposited data

How the results depend on the processing

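No paired analysis was possible because the results come from no test and only 1 group was used. The 4363 promoter regions in the most open 10% in each library numbered 4222 to 4744 under the alternatives and the 2409 distal ones 2175 to 2622. The share of counts in that 10%, 41.7 ± 4.01%, was 40.3% to 44%. Of the 19 chosen genes with a region 11 were above the median of all promoters, and 8 to 13 under the alternatives. Of 37 lists with a measured gene 9 had a median above it, and 7 to 11 under the alternatives; 14 of 41 lists exceeded the share of all coding genes with a region, and 14 to 16 under the alternatives. TMM factors and quantile normalisation moved 0 of the 19 gene levels by more than their SD. The median of 3, the filter on counts and each left-out library also moved 0, but these checks could hardly do otherwise. A median of 3 or a left-out library can barely shift a mean of 3 by its SD. The promoter regions of the 19 genes also hold counts far above the filter. CPM per region moved 16 and the reference within 5 Mb moved 15. On CPM per region Nkx2-2 had 0.836 times the median, Isl1 1.06 and Neurod1 1.25, and Neurod1 was also above it without replicate 3, at 1.01. Leaving out replicate 3 lowered the Hox median to 0.131 of all promoters, against 0.209. With listed starts only, the share with a region was 21.4% of synaptic, 27.3% of glial, 22.2% of ductal and 11.8% of acinar genes, which leaves fewer genes. Over 2 genes each, the liver median ran from 0.186 to 0.669 of all promoters and the lymphoid one reached 1.19 with the wider window. Depth limits the least open regions, which hold a few counts per library.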

Other observations

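Promoters poor in CG dinucleotides were open at some genes. Of 4818 windows with 0 to 4 CG dinucleotides 287 had a region. The highest was at Cyth1, a guanine nucleotide exchange factor gene, with 192, 185 and 173 CPM per kb (183 ± 9.45, SD, n = 3) and 4 CG dinucleotides. Spag9, a scaffold gene of JNK signalling, had 116 CPM per kb with 3, and Jakmip1, a microtubule-associated protein gene of neurons, 114 with 1. Lmna, the gene of lamins A and C, had 77.9, 80.1 and 63.1 CPM per kb with 1, and Shc1, an adaptor of receptor tyrosine kinases, 80.4, 71.9 and 72.7 with 4. All of these exceeded the median of coding promoters in each library.

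The reverse was also found: of 4416 windows with 25 or more CG dinucleotides 670 had no region. Among those richest in CG were Pou4f1, a POU factor of sensory neurons (57), Wnt9a, a secreted Wnt ligand (58), Ikzf1, a lymphoid zinc finger factor (52), Barx1, a homeobox gene of the stomach (50), and Reln, which guides migrating neurons (47). The same set held Actg1, a cytoplasmic actin gene (50), Alyref, an mRNA export factor (54), and Csnk1e, a casein kinase (52), which most cells use. These genes were picked after the list was seen, and whether another start of theirs was open was not tested.

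Among distal regions over 10 kb from a coding start, a region inside Gli2, a factor of hedgehog signalling, had 184, 159 and 149 CPM per kb (164 ± 18.1), 76.8 kb from its start. A region 47.0 kb from En1, a homeobox gene of the midbrain, had 181, 154 and 139 CPM per kb (158 ± 21.1). Genes of cholesterol synthesis were among those highest over promoters within 5 Mb: Sqle, squalene epoxidase, had 4.12 times and Hmgcs1, which makes HMG-CoA, 4.04 times the local median. These were picked from a ranking and stand for no list.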
